A study of Homo sapiens with 4 samples.

Results

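The BCL2 family members described here were BCL2, BCL2L1 (BCL-XL), MCL1, BAX, BAK1, BIK, BCL2L11 (BIM), PMAIP1 (NOXA), BBC3 (PUMA) and BID, 10 genes in all. They were read in HuH7 cells, an established human hepatocellular carcinoma line, on Affymetrix expression arrays. Members were taken as the probe sets of the deposited table whose platform annotation gives 1 gene symbol, that of a member. This gave 30 of 54613 probe sets and covered 9 of the 10 genes. BBC3 was represented by 1 probe set that is annotated to several genes, and it was not analysed here. Of the 9 measured genes, 3 are anti-apoptotic (BCL2, BCL2L1, MCL1), 2 are effectors (BAX, BAK1) and 4 are BH3-only (BIK, BCL2L11, PMAIP1, BID).

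The groups were HuH7 cells wild-type for KDM6B, with 2 arrays, and KDM6B knockout HuH7 cells, with 2 arrays. KDM6B encodes a histone demethylase that removes methyl groups from a lysine of histone H3 (H3K27), a mark tied to gene silencing. Both groups share the HuH7 background and were grown in RPMI medium with serum, and no further treatment is labelled. Knockout cells received a guide vector and a Cas9 vector, were selected with G418, and were subcloned by limiting dilution. The labels name 1 guide, and leave unstated whether the 2 knockout arrays hold 1 subclone or 2 and whether cultures were separate. The p-values below measure only the spread between arrays, which may be technical. The effect of losing KDM6B and any effect of subcloning cannot be told apart in this design. The series title names resistance to lipotoxicity as its question, that is, to death caused by excess fat in hepatoma cells.

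The BCL2 family decides whether the outer mitochondrial membrane is opened, which commits a cell to apoptosis. BAX and BAK1 form the pores, the anti-apoptotic proteins bind and restrain them, and BH3-only proteins either neutralise the anti-apoptotic proteins or activate BAX and BAK1 directly. Hepatocytes depend on BCL-XL and MCL-1 for survival, and BIM, PUMA and cleaved BID take part in the death of hepatocytes exposed to saturated fatty acids, to stress of the endoplasmic reticulum or to death receptor ligands.

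Array values are log2 expression values, and a change is the knockout mean minus the wild-type mean on that scale. Array medians lay between 4.96 and 5.05. KDM6B itself read 8.46 and 8.27 on wild-type arrays and 7.95 and 8.14 on knockout arrays, a difference of -0.32 that was not called (limma adjusted p = 0.235). Of 6 measured hepatocyte or hepatoma markers, which include ALB and AFP, levels were 11.31 to 13.96 on every array, and SERPINA1 alone was called, lower by 0.49. Summed log2 levels of 5 fibroblast markers were 24.58 to 25.34 in wild type and 25.27 to 25.65 in knockout, with 0 called. Those of 4 endothelial markers were 17.28 to 18.33 and 16.47 to 16.69, with PECAM1 called lower, and those of 3 leukocyte markers 18.79 to 19.26 and 17.29 to 17.83, with LYZ called lower. Single markers of these lists ranged widely. LYZ read 8.95 to 11.27, PECAM1 6.20 to 7.37, COL1A1 6.86 to 7.17 and PDGFRB 5.36 to 5.77 over the 4 arrays, and COL1A2, DCN, VWF and CD3E read 4.67 to 5.34. KDR, CDH5, PTPRC and LUM read 2.33 to 3.34, below the 25th percentile of each array (3.53 to 3.67). The part of these markers in the results below was not tested.

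Across the family, 4 of the 9 measured genes were called when each gene was read by its brightest probe set. The pro-apoptotic genes BIK and BCL2L11 and the anti-apoptotic gene BCL2L1 rose, and the pro-apoptotic gene PMAIP1 fell. In RNA from a whole culture, fewer cells that express a gene and less of its RNA per cell cannot be told apart. Over all 19775 genes 7.07% were called at an adjusted p under 0.05 (3.14% higher and 3.94% lower). All 9 measured members lay above the median brightness of all genes, where calls were more frequent. Of the 9886 genes at or above it that were placed on a chromosome, 12.1% were called (5.24% higher). Among the 30 probe sets, fitted with all 54613, 3 were called, 2 higher and 1 lower, against 2.91% of all probe sets (1.27% higher and 1.63% lower). These were the BIK probe set, 1 of BCL2L1 and 1 of PMAIP1. With any 1 of the 4 arrays left out, 0 of the 9 genes and 0 of the 30 probe sets were called. Those fits called 37 to 192 of the 19775 genes and 0 to 82 of the 54613 probe sets in all, so a count of 0 among the members is near the background. With 1 array left out the difference was 0.96 to 1.33 for BIK and 0.48 to 0.57 for BCL2L11. It was 0.38 to 0.41 for BCL2L1 and -0.96 to -0.78 for PMAIP1. In these 4 genes both knockout arrays lay beyond both wild-type arrays, so the sign could not change in such a fit.

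**Figure D1:**
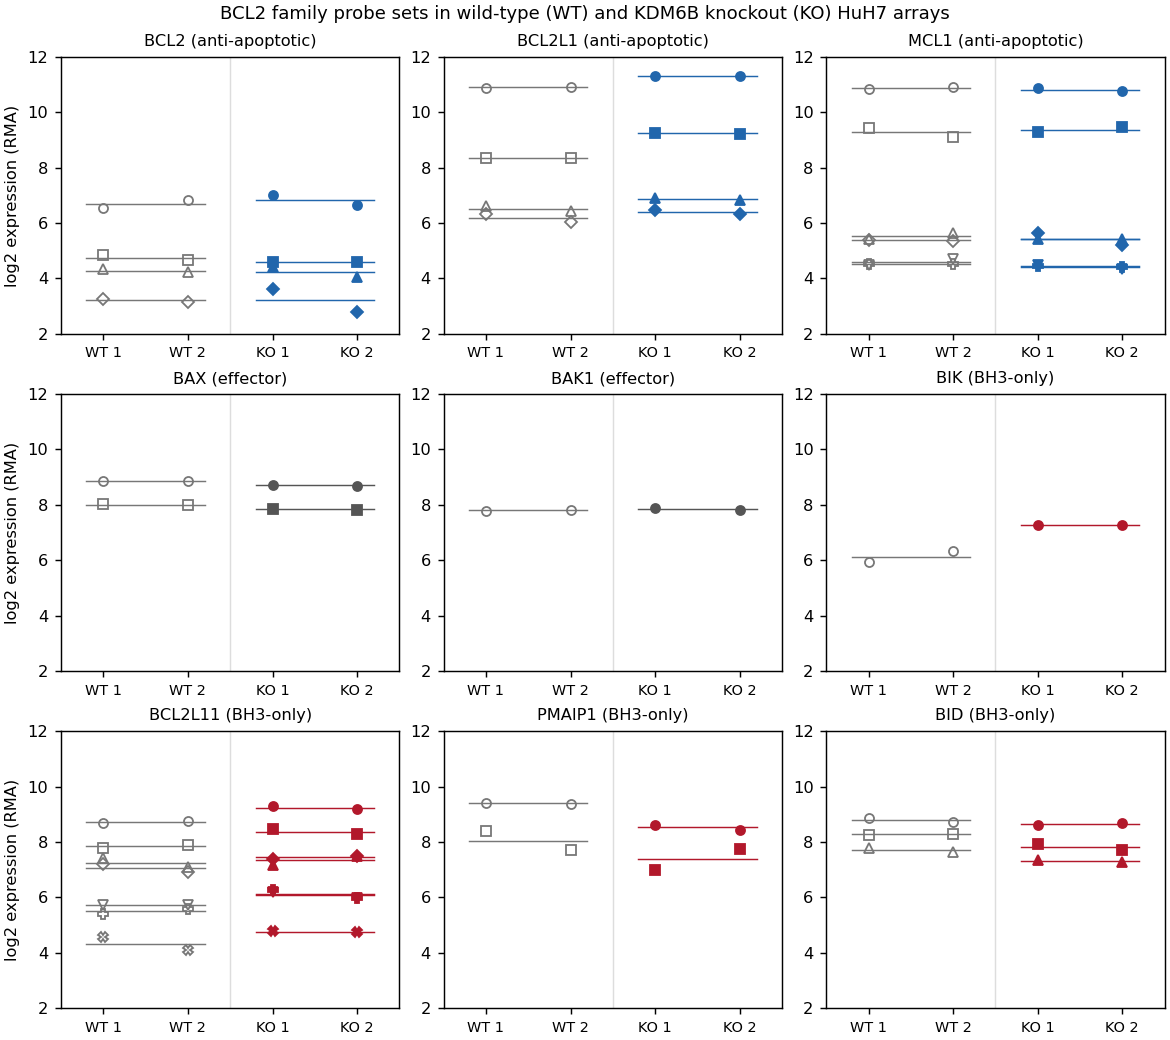
Log2 expression (vertical axis) of every BCL2 family probe set on the wild-type arrays (WT 1, WT 2, open grey symbols) and the knockout arrays (KO 1, KO 2, filled symbols, coloured by class), with one panel per gene, one symbol shape per probe set and lines at the group means. Both knockout symbols of BIK (7.28 and 7.27) lie above both of wild type (5.94 and 6.32), whereas those of the brighter PMAIP1 probe set (8.62 and 8.43) lie below 9.41 and 9.38.

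Among the BH3-only genes BIK showed the largest difference of the 9. BIK encodes a sensitiser that sits mainly at the endoplasmic reticulum and antagonises BCL2 and BCL-XL. Its only probe set, of the type specific to 1 gene, read 5.94 and 6.32 on the wild-type arrays and 7.28 and 7.27 on the knockout arrays. Both knockout arrays were higher than both wild-type arrays, and the wild-type arrays lay further apart from each other (SD 0.27) than the knockout arrays. The rise was 2.21-fold, a log2 difference of 1.15 (SE 0.16, 95% interval 0.74 to 1.55, limma adjusted p = 0.0182 over genes). Over all probe sets the adjusted p was 0.0265. Of the 10 expressed genes on each side of BIK on chromosome 22 (those at or above the median brightness of all genes), 0 were called higher and 1 lower, with a median of 0.06.

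PMAIP1 went the other way. It encodes NOXA, a BH3-only protein that binds MCL1 selectively and promotes its breakdown, and its transcription is raised by p53 and by ATF4. The brighter of its 2 probe sets read 9.41 and 9.38 on the wild-type arrays and 8.62 and 8.43 on the knockout arrays. Both knockout arrays were lower, and the fall was 1.83-fold, a log2 difference of -0.87 (SE 0.10, 95% interval -1.13 to -0.61, limma adjusted p = 0.012 over genes). The other probe set read 8.39 and 7.70 on the wild-type arrays and 7.00 and 7.74 on the knockout arrays. Its groups overlapped, because knockout 2 lay above wild type 2, and its difference of -0.68 was not called (adjusted p = 0.414 over probe sets). Both PMAIP1 probe sets are of a type that may cross-hybridise, so the gene was not measured once such probe sets were left out.

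BCL2L11 encodes BIM, which binds all the anti-apoptotic proteins and can activate BAX directly, and which is a known target of the FOXO transcription factors. It had 7 probe sets, the most of any member, and all 7 read higher in knockout, by 0.08 to 0.62 with a median of 0.43. The brightest read 8.67 and 8.75 on the wild-type arrays and 9.28 and 9.19 on the knockout arrays, and the next brightest 7.79 and 7.89 against 8.45 and 8.29. In 6 of the 7 both knockout arrays exceeded both wild-type arrays. Over all probe sets 20.5% were separated in that direction. The brightest probe set gave a 1.44-fold rise, a log2 difference of 0.52 (SE 0.09, 95% interval 0.29 to 0.76, limma adjusted p = 0.0347 over genes). None of the 7 was called over all probe sets, where the smallest adjusted p was 0.058 and 5 had an unadjusted p under 0.05. The gene call ended when the variance had no intensity trend (adjusted p = 0.086) and with the mean of all 7 probe sets (0.42, adjusted p = 0.0691).

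BID, the BH3-only protein that caspase-8 cleaves to link death receptors to mitochondria, read lower at all 3 of its probe sets. The brightest read 8.88 and 8.73 on the wild-type arrays and 8.62 and 8.69 on the knockout arrays, a difference of -0.16 that was not called (95% interval -0.41 to 0.10, limma adjusted p = 0.507 over genes). The other 2 probe sets differed by more, at -0.45 and -0.40. One of them read 8.26 and 8.29 against 7.92 and 7.72, and the other 7.79 and 7.63 against 7.34 and 7.27. All 3 had both knockout arrays below both wild-type arrays, a separation shown by 19.9% of all probe sets, and none was called (adjusted p = 0.13 to 0.635 over probe sets).

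The promoters of BCL2L11 and PMAIP1 are shown because these BH3-only genes were called in opposite directions, and because the methyl mark that KDM6B removes is often found at promoters rich in CG pairs. Each window runs from 250 bases before to 50 after the start of the gene, from RefSeq on GRCh38.p14. Capitals mark 3 motifs searched on both strands, which are the GC box GGGCGG, the forkhead (FOXO) core GTAAACA and the cAMP response element half-site TGACG. The matches shown do not overlap one another.
BCL2L11 (chr2:111120664-111120963, plus strand): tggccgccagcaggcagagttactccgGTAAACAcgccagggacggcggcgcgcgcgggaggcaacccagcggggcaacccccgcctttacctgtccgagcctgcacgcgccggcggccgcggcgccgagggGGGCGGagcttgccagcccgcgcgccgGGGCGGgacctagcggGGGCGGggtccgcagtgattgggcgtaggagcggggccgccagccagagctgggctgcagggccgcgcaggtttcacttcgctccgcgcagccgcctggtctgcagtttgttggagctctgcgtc
PMAIP1 (chr18:59899746-59900045, plus strand): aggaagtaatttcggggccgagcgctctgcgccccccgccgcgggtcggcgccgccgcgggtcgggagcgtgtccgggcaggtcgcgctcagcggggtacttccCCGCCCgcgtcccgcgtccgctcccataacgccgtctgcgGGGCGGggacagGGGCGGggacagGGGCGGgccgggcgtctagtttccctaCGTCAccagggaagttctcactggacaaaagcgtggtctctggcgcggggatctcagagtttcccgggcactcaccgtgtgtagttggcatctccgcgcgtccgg
BCL2L11 has 39 CG pairs in its window and PMAIP1 has 42, against a median of 14 over all 35116 promoter windows of that length. At least as many were held by 8.7% and 5.8% of all windows. Many CG pairs were not particular to called members. Of members not called, BAX has 38, BCL2 31, BAK1 7 and BID 6 to 37 over its windows. The called BCL2L1 has 16 and 20. The GC box occurs 3 times in BCL2L11 and 4 times in PMAIP1, and 45.0% of all windows hold it. It occurs 2 times in BAX and in BAK1, 0 to 4 times in BID and 0 times in BCL2. GTAAACA occurs 1 time in BCL2L11 and is held by 3.4% of all windows, and TGACG occurs 1 time in PMAIP1 and is held by 24.6%. TGACG is not particular to PMAIP1 among the members. It also occurs 1 time in BAX and in BCL2, which were not called, and in 1 window of BCL2L1. The letters describe the windows only, since no binding or histone mark was measured. BIK had no entry in the promoter table.

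**Figure D2:**
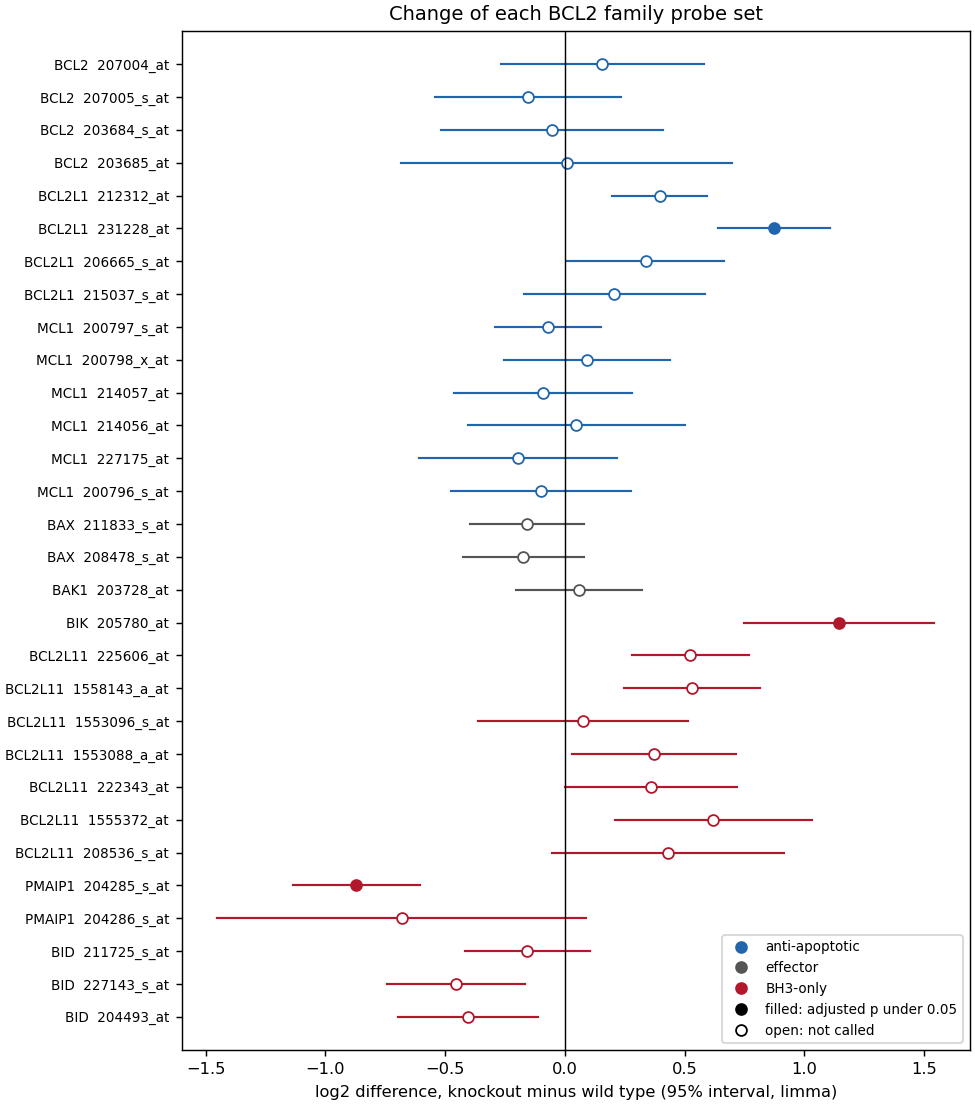
Log2 difference (knockout minus wild type, horizontal axis) of each of the 30 probe sets with its 95% interval from the limma fit over all probe sets, coloured by class, with filled points where the adjusted p was under 0.05. All 4 BCL2L1 and all 7 BCL2L11 points lie right of 0, all 3 BID and both PMAIP1 points lie left of it, and the BCL2 and MCL1 points lie on both sides.

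Of the anti-apoptotic genes, BCL2L1 rose. It encodes BCL-XL, with a shorter pro-apoptotic splice form that these values do not separate. Its brightest probe set read 10.89 and 10.93 on the wild-type arrays and 11.31 and 11.30 on the knockout arrays, a 1.32-fold rise (log2 difference 0.40, SE 0.08, 95% interval 0.20 to 0.59, limma adjusted p = 0.0427 over genes). Replicate arrays lay close together (SD 0.03 in wild type and 0.01 in knockout), and the groups did not overlap. The call ended when the variance had no intensity trend (adjusted p = 0.137), when each array was centred on its median (adjusted p = 0.0784), and when cross-hybridising types of probe set were dropped, which left the same BCL2L1 probe set among fewer genes (adjusted p = 0.056). Over all probe sets it was not called (adjusted p = 0.0708).

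Another BCL2L1 probe set was called over all probe sets. It read 8.37 and 8.37 on the wild-type arrays and 9.26 and 9.22 on the knockout arrays. It rose by 0.87 on the log2 scale (SE 0.10, limma adjusted p = 0.0132). Against the wild-type mean it was higher by 0.89 in knockout 1 and 0.85 in knockout 2, where the brightest probe set was higher by 0.40 and 0.39. The remaining pair gave 0.34 and 0.21 and was not called (adjusted p = 0.323 and 0.679). All 4 probe sets thus read higher, by amounts that differed among them.

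The expressed genes that follow BCL2L1 on chromosome 20 also read higher. Among the 10 that follow it in RefSeq order, 9 were higher, 4 were called higher and 0 lower, and the median was 0.41. The 4 were PLAGL2 (0.94), POFUT1 (0.57), ASXL1 (1.15) and NOL4L (0.74). The 10 that precede it had a median of -0.11, with ID1 (1.05), its nearest expressed neighbour on that side, called higher and NANP (-1.08) lower. Of all 9886 expressed and placed genes 12.1% were called, 5.24% higher, and their median was -0.04. Neighbours were examined after the values had been seen, and the part of chromosomal position in the BCL2L1 values was not tested. For the other called members the 20 neighbours had medians of -0.11 (BCL2L11, 0 called), 0.06 (BIK) and -0.01 (PMAIP1, 1 called higher and 2 lower). Mostly higher neighbours also lay around 2 members that read lower and were not called. They were 15 of 16 for BID (1 called higher, median 0.14) and 15 of 20 for BAX (3 called higher, median 0.12). Around BCL2, MCL1 and BAK1, 6, 10 and 8 of 20 were higher.

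**Figure D3:**
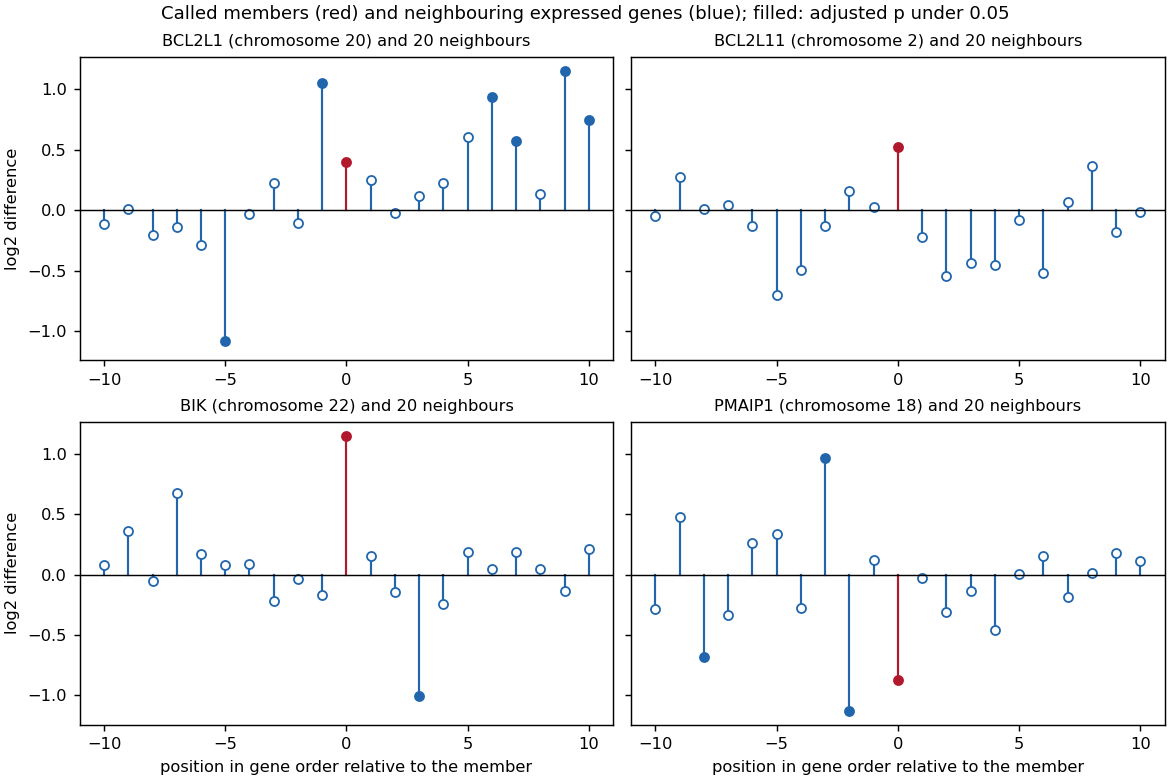
Log2 difference (vertical axis) of each called member (red, position 0) and the 10 nearest expressed genes on each side in chromosomal order (blue), with filled points where the adjusted p over genes was under 0.05. To the right of BCL2L1, 9 of 10 genes lie above 0, whereas BIK stands at 1.15 among neighbours with a median of 0.06.

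MCL1, the short-lived anti-apoptotic protein that NOXA binds, was not called at any of its 6 probe sets. The brightest read 10.85 and 10.92 on the wild-type arrays and 10.87 and 10.76 on the knockout arrays. The groups overlapped, and the difference was -0.07 (95% interval -0.29 to 0.15, limma adjusted p = 0.781 over genes). The next brightest read 9.44 and 9.12 against 9.28 and 9.46. Over the 6 probe sets 2 read higher and 4 lower, with differences of -0.20 to 0.09, and 2 of them lay below the array median on all 4 arrays.

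BCL2, the founding inhibitor of the family, was read at low levels by 3 of its 4 probe sets. These 3 lay below the array median on all 4 arrays, and 1 of them read 2.80 to 3.63, below the 25th percentile of every array. The brightest lay above the median of every array. It read 6.56 and 6.82 on the wild-type arrays and 7.02 and 6.67 on the knockout arrays. Knockout 1 was the highest array and knockout 2 lay between the wild-type arrays, so the difference of 0.16 was smaller than the gap between the knockout arrays (95% interval -0.28 to 0.59, limma adjusted p = 0.744 over genes). The 4 differences ran from -0.16 to 0.16, with 2 of each sign, and none was called.

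The effectors differed little. BAX read 8.86 and 8.85 on the wild-type arrays and 8.73 and 8.67 on the knockout arrays at its brighter probe set, and the other had means of 8.01 ± 0.02 and 7.84 ± 0.02 (SD, n = 2 each). Knockout arrays were lower at both, by 0.16 and 0.17, and neither difference was called (95% interval -0.38 to 0.07 at the brighter, limma adjusted p = 0.448 over genes). BAK1 has 1 probe set, which read 7.79 and 7.82 on the wild-type arrays and 7.90 and 7.82 on the knockout arrays, a difference of 0.06 (95% interval -0.20 to 0.31, adjusted p = 0.857). Its knockout arrays were the higher ones, with knockout 2 above wild type 2 by less than 0.01.

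Set side by side, the anti-apoptotic and the BH3-only genes were not separated by direction. Among 3 anti-apoptotic genes, 1 rose and 2 were not called, and the median difference was 0.16. Among 4 BH3-only genes, 2 rose, 1 fell and 1 was not called, and the median was 0.18 with a range from -0.87 to 1.15. The range of the anti-apoptotic genes, from -0.07 to 0.40, lay within it. For the 2 effectors 0 were called (0 with an unadjusted p under 0.05), with a median of -0.05, and the median over all genes was 0.01. Against the wild-type mean the anti-apoptotic median was 0.33 in knockout 1 and -0.02 in knockout 2, and the BH3-only median was 0.19 and 0.18. The anti-apoptotic median was the value of BCL2, whose groups overlapped. The BH3-only median was the midpoint of BCL2L11 (0.57 and 0.48) and BID (-0.19 and -0.12), which differed in opposite directions. It is thus not a shift that the BH3-only genes shared. With the mean of all probe sets of each gene the BH3-only median became 0.04 and the anti-apoptotic median -0.01. These medians rest on 2 to 4 genes and were not tested.

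**Figure D4:**
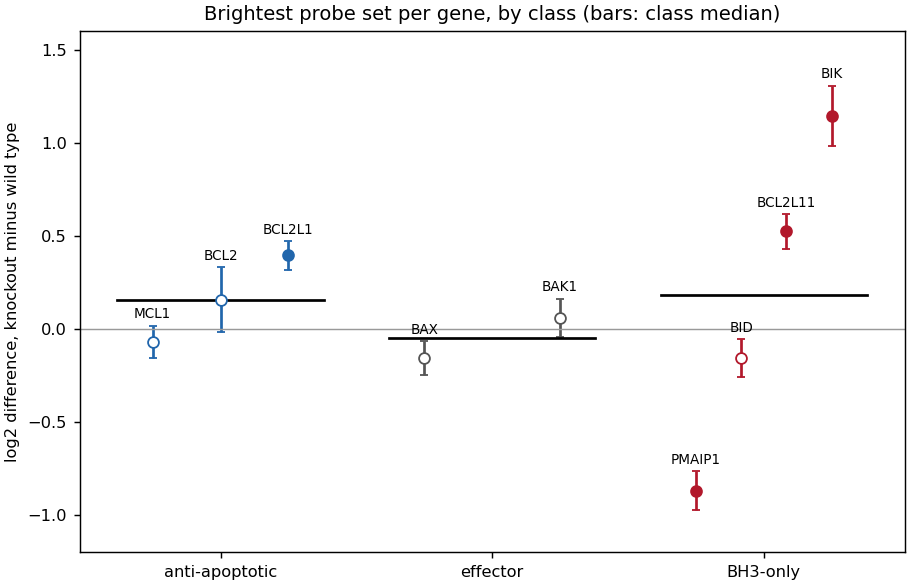
Log2 difference (knockout minus wild type, vertical axis) of the brightest probe set of each gene with its standard error, grouped as anti-apoptotic, effector and BH3-only (horizontal axis), with black bars at class medians and filled points where the adjusted p over genes was under 0.05. The BH3-only genes spread from -0.87 (PMAIP1) to 1.15 (BIK), on both sides of the anti-apoptotic genes.

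The probe sets of 1 gene mostly moved one way. In 5 of the 7 genes with several probe sets all differences had 1 sign, the exceptions being BCL2 and MCL1. In all, 17 of the 30 probe sets read higher and 13 lower. Both knockout arrays lay outside the wild-type range, on the same side, at 20 of the 30, 11 higher and 9 lower, and at 40.5% of all probe sets. An unadjusted p under 0.05 was reached by 12 of the 30 and by 14.6% of all probe sets. Probe sets of 1 gene share its transcripts, so these counts are not over independent measurements.

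Other genes of the mitochondrial pathway came from 4 lists with 46 genes, of which 42 were measured. DDIT3, the stress transcription factor CHOP, was the only gene called, 1 of 42 against 7.07% of all genes. It read 9.44 and 9.41 on the wild-type arrays and 8.77 and 8.63 on the knockout arrays, and fell by 0.72 (SE 0.10, limma adjusted p = 0.0162 over genes). The call ended with any 1 array left out (-0.79 to -0.65, adjusted p = 0.108 to 0.169). CHOP is induced in endoplasmic reticulum stress and is known to raise BIM. Its partner gene ATF4 read 12.96 and 12.89 against 12.77 and 12.79, a difference of -0.15 that was not called (adjusted p = 0.384). Over the 42 genes the median difference was -0.01.

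Of 13 other BCL2 family genes, such as BCL2L2, BAD and BMF, 0 were called by limma and 3 had an unadjusted p under 0.05. These 3, named after their values were seen, were BNIP3L (0.55), which marks mitochondria for removal, BCL2L12 (0.32) and the BH3-only gene HRK (-0.60), and their adjusted p-values were 0.167, 0.136 and 0.199. Among 10 measured genes for proteins released from mitochondria, the apoptosome and caspases, 0 were called and 4 had an unadjusted p under 0.05. All 4, again named after their values were seen, read lower in knockout. AIFM1 (apoptosis-inducing factor) differed by -0.55, ENDOG (endonuclease G) by -0.57, HTRA2 (a released protease) by -0.44 and CASP9 (the initiator caspase of the apoptosome) by -0.37, with adjusted p-values of 0.0587, 0.0675, 0.0765 and 0.118. AIFM1 read 10.15 and 10.30 against 9.81 and 9.54. The gene for cytochrome c, CYCS, differed by -0.04. Of all genes 20% had an unadjusted p under 0.05.

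Of 5 measured inhibitors of apoptosis proteins, which block caspases, 0 were called and 0 had an unadjusted p under 0.05, with differences from -0.18 to 0.09. Of 14 regulators of the members and outer membrane channels, DDIT3 fell and the other 13 were not called. FOXO3, a FOXO factor, read 10.01 and 9.81 on the wild-type arrays and 10.20 and 10.19 on the knockout arrays, a difference of 0.28 that was not called (adjusted p = 0.191). CASP8, whose product cleaves BID, differed by 0.52 and was not called (adjusted p = 0.29), with wild-type arrays at 7.86 and 7.25. VDAC2, a channel that holds BAK1 at the membrane, differed by -0.12.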

How the data were processed

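Per the submitters' processing notes, the deposited log2 values were made by the authors with RMA and the affy package, with versions not given in the sources used here. Because RMA quantile-normalizes arrays, it takes out any shift common to most genes. Values of 4 arrays were used as deposited. The number of arrays limits the precision, and no detection calls were used.

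Groups came from the sample titles. Probe sets were named through the platform annotation (41091 with 1 symbol, 1801 with several, 11721 with none). Limma 3.58.1 in R 4.3.3 (lmFit, eBayes with intensity trend, two-sided) was fitted over all 54613 probe sets and over 19775 genes, each read by its brightest probe set. Benjamini-Hochberg adjustment ran over each whole table, with calls at an adjusted p under 0.05. The fits had 2 residual degrees of freedom. With 2 arrays against 2 the smallest exact permutation p is 0.333, and no such test was made. Intervals are 95% limma intervals.

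Members, lists and tests were chosen with earlier results of these data known. Named genes were all members, KDM6B and up to 3 called genes per pathway list and direction; others are given as named after their values were seen or as values of their list. Genes were placed by RefSeq order (GRCh38.p14, 19735 matched). Alternatives were other variance, normalization, filter, probe set and block settings and each array left out. The steps were tested on simulated data. Figures used matplotlib 3.10.9.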

Additional observations from a re-analysis of the deposited data

How the results depend on the processing

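The main counts were 3 of 30 member probe sets, 4 of 9 member genes and 1 of 42 other pathway genes. Without the intensity trend 1 probe set and 2 genes (BIK and PMAIP1) were called. Dropping the cross-hybridising types of probe set left 2 of 7 genes called (BIK and BCL2L11). Without dim features 5 of 24 member probe sets and 4 of 36 pathway genes were called, where fewer features were tested and 2221 of 28250 probe sets and 1744 of 10198 genes were called in all. At an adjusted p under 0.10 the counts were 6 probe sets and 4 pathway genes. Pathway genes called were 4 with the mean of all probe sets of a gene and 2 with arrays centred on their medians. With each array left out in turn all 3 counts were 0, with fewer samples in the fit and a single array taken to have the spread of the other group. Those fits called 0 to 82 probe sets and 37 to 192 genes over the whole tables, so counts of 0 are near the background.

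Same-numbered arrays did not move together (the replicate differences of the groups correlated at -0.55 over genes, which are not independent measurements), and 2 pairs are too few to take the numbers as pairing. The replicate block left 0, 0 and 0 called, with 77 probe sets and 175 genes called in all. The crossed pairing (wild type 1 with knockout 2), added after that correlation was seen, called 7 member probe sets, 4 member genes and 11 pathway genes, with 4349 of 54613 probe sets and 3662 of 19775 genes called in all.

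The BH3-only median of 0.18 became 0.039 with the mean of all probe sets, 0.23 with repeated quantile normalization and 0.15 with median centring, and the effector median of -0.05 became 0.0064 with repeated quantile normalization. BIK, BCL2L11, BCL2L1, PMAIP1 and DDIT3 kept their sign under every alternative that could measure them. With an array left out this was fixed in advance, since both knockout arrays lay beyond both wild-type arrays. The variance and block settings, the filter for dim features and the threshold of 0.10 do not alter the difference. They could not change the sign either. Dropping the cross-hybridising types left the same probe set for BIK, BCL2L11, BCL2L1 and DDIT3. BIK and DDIT3 have 1 probe set, and those of BCL2L11, BCL2L1 and PMAIP1 all had 1 sign. The mean of all probe sets thus could not change it. Only the normalization settings could have done so.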
